A study of Mus musculus with 9 samples.

Results

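Interferon-stimulated genes are the genes that a cell turns on when interferon reaches its receptor, and they were followed here as a fixed list of 45 mouse genes across the non-malignant cells of glioblastoma xenografts. The list is defined by gene symbols. Of 33274 symbols listed in any of the 9 count tables, 12580 were listed in all of them, and 44 of the 45 genes were among these. Only Cxcl9 was missing from some tables, those of the normal brain and of T233, where it is unlisted and therefore unmeasured. It was left out of the summed score, which is the share of all unique molecular identifiers (UMIs, 1 per captured mRNA molecule) that fell on the other 44 genes.

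Interferons are secreted alarm signals against viruses and intracellular microbes. Type I interferons (alpha and beta) act mainly through a DNA element called the interferon-stimulated response element (ISRE), while interferon-gamma, made mainly by T and NK cells, acts mainly through the gamma-activated site (GAS). Many of the genes respond to both kinds. In the brain, microglia, infiltrating monocytes, endothelial cells and astrocytes all carry the receptors. By role, the list holds 23 antiviral effectors (such as Ifit1 to Ifit3, Ifitm3, Bst2, Oas1a and Eif2ak2), 10 interferon-induced GTPases (Gbp2, Gbp3, Gbp5, Gbp6, Gbp7, Iigp1, Igtp, Irgm1, Irgm2 and Ifi47, which attack the vacuoles of intracellular microbes), 4 transcription factors (Irf1, Irf7, Irf9, Stat2), 3 genes of the ubiquitin-like modifier ISG15 (Isg15, its protease Usp18 and its ligase Herc6), 3 nucleic acid sensors (Ifih1, Ifi204, Zbp1) and 2 chemokines (Cxcl9 and Cxcl10).

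The tables came from Drop-seq, a droplet method that counts the 3′ ends of mRNAs in single cells, so a count does not grow with transcript length. Mouse cells of the tumour microenvironment (TME) were taken from nude mice, an athymic strain in which T cells are strongly reduced. The mice carried human glioblastoma patient-derived orthotopic xenografts (PDOXs), grown from tumour organoids implanted in the brain and collected at the tumour endpoint. There were 7 untreated PDOXs (P3, P8, P13, T16, T101, T192 and T233), 1 PDOX treated with temozolomide (P3TMZ, compared with P3, which is labelled untreated; control mice of the temozolomide experiment were given the vehicle, and the labels do not say whether P3 is one of them) and 1 tumour-free nude mouse brain (Nu-NB, labelled Nude-Brain). Each condition is 1 library with no repeat, so replication exists only across the 7 untreated PDOXs, which differ in tumour of origin. T192 and T233 were derived from 1 patient, and the paper describes them as a longitudinal pair. One tumour preceded and the other followed standard treatment with radiotherapy and temozolomide. The mouse cells were flow-sorted in Nu-NB and P8 and separated from the human cells with magnetic beads in the rest, which leaves P8 as the only PDOX prepared like Nu-NB.

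Between 722 (P3TMZ) and 2770 (P13) cells per library passed the filters, with 912320 to 7688040 UMIs and a median of 513 to 1274.5 UMIs per cell. Cells were clustered without the 45 genes, and clusters were named from marker lists; in every library myeloid-like cells held 23604 to 36604 CPM (UMIs per 1000000 UMIs of the class) of the 8 myeloid markers and endothelial-like cells 9469 to 20685 CPM of the 8 endothelial markers. T101 stood apart: 715 of its 1498 cells stayed unnamed, with 26.5% of their UMIs on pseudogene symbols. Pseudogene symbols also took 6.06 to 9.69% of the UMIs of myeloid-like cells in the 7 libraries prepared with beads and 0.318 to 0.321% in the flow-sorted libraries. Of 36 pairs of libraries, 8 shared a cell barcode and none shared more than 2.

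The upstream sequences of the genes show the elements named above. RefSeq promoters of GRCm38.p6 (300 bases, from 250 before the transcription start to 50 after it) were found for 35 of the 45 genes. The letters GAAANNGAAA, the core of the ISRE read on either strand, were present in 20 of the 35 genes (57.1%), against 3.99% of 27025 genes with a promoter. The GAS letters TTCNNNGAA, which read the same on both strands, were present in 12 (34.3%), against 9.55%. Among the 8 GTPases with a promoter, 7 held the ISRE letters and 4 the GAS letters, and among 18 antiviral effectors these numbers were 9 and 7. Both motifs were found in 8 of the 41 promoter entries of these genes, and in 2 of them a match of one overlapped a match of the other. The 110 bases before the start are shown for 3 GTPases that separate the cell classes below (Gbp7, Gbp2 and Igtp), for Irgm2, the neighbour of Igtp, and for 3 effector or modifier genes named in the comparisons, with the ISRE and GAS letters in capitals and each sequence in the direction of transcription. A match describes these letters only and does not show binding.
Gbp7, chr3:142530226-142530335, plus strand: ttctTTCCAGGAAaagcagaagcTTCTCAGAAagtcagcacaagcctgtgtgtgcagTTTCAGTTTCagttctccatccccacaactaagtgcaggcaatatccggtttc
Gbp2, chr3:142620553-142620662, plus strand: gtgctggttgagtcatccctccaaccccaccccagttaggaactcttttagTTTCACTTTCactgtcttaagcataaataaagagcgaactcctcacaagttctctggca
Igtp, chr11:58199446-58199555, plus strand: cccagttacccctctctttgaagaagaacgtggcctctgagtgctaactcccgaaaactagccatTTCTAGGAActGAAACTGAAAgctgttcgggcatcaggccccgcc
Irgm2, chr11:58214867-58214976, plus strand: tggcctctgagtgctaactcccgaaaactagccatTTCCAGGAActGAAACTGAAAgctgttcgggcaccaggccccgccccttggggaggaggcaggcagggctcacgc
Isg15, chr4:156200819-156200928, minus strand: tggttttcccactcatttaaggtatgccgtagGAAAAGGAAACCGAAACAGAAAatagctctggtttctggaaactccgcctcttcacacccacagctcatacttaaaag
Oas1a, chr5:120907526-120907635, minus strand: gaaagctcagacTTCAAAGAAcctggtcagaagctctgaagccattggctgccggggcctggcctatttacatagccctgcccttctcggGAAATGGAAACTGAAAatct
Ifit1, chr19:34640779-34640888, plus strand: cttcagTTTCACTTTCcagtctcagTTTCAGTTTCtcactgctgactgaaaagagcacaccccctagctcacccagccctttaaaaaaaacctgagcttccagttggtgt

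Among endothelial-like, myeloid-like and astrocyte-like cells, the endothelial-like cells carried the largest share of interferon-stimulated transcripts, followed by the myeloid-like and then the astrocyte-like cells, and this order was the same in the 8 libraries that held all 3 classes. In endothelial-like cells of the untreated PDOXs the share ran from 0.470% of UMIs (P3) over a median of 0.623% to 1.54% (T101), in myeloid-like cells from 0.133% (T233) over 0.378% to 1.23% (T101), and in astrocyte-like cells of 6 PDOXs from 0.0581% (T233) over 0.119% to 0.871% (T101). Endothelial-like cells exceeded myeloid-like cells in 9 of 9 libraries, by 1.04 times in P13 and by 4.67 times in T233; in P13 the 95% counting intervals of the shares (0.527 to 0.550% and 0.504 to 0.535%) overlapped. Across PDOXs the classes overlapped, since the myeloid share of T101 lay above the endothelial share of every other PDOX. In such sums, more cells that express a gene and more mRNA of it per cell cannot be told apart.

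**Figure D1:**
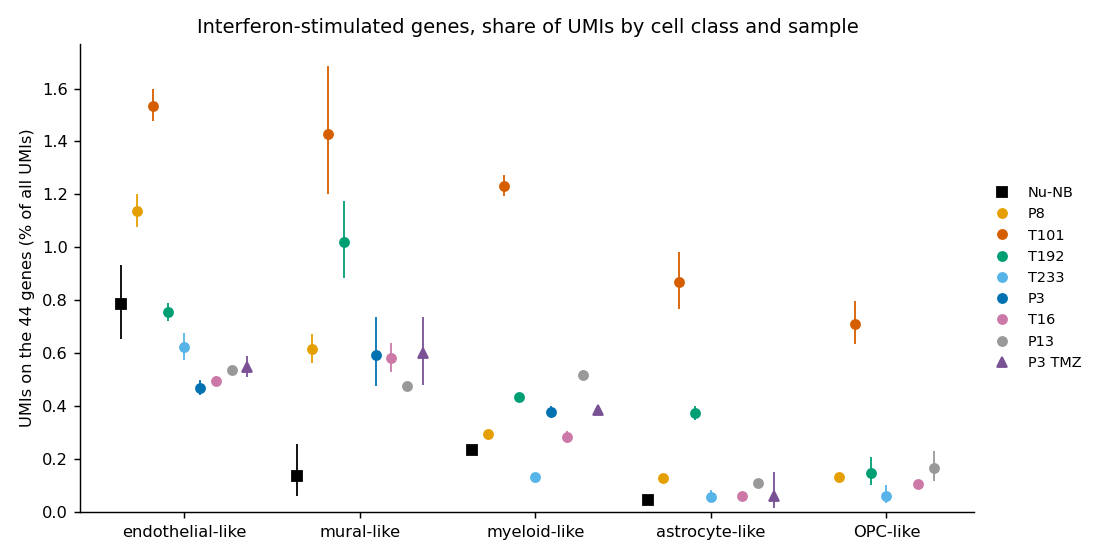
Share of UMIs on the 44 genes (y axis, % of all UMIs of the class) in 5 cell classes (x axis) of each library, with 95% Poisson intervals for counting error as bars. Squares are Nu-NB, triangles P3TMZ and circles the untreated PDOXs. T101 is the highest circle in every class, and its myeloid-like cells reach 1.23%.

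Mural-like cells (pericytes and smooth muscle) held 0.475 to 1.43% in 6 PDOXs, a range close to that of endothelial-like cells, although on 20 to 218 cells. Their share lay above that of endothelial-like cells in T192 (1.02 against 0.755%), P3 (0.595 against 0.470%), T16 (0.582 against 0.496%) and P3TMZ (0.599 against 0.549%). Their sums also held 411 to 7844 CPM of myeloid markers in the PDOXs, and the part of these in the share was not tested. The oligodendrocyte precursor-like (OPC-like) cells of 6 PDOXs held 0.0605 to 0.711%. Lower still were the neuronal-like cells, at 0.0334% in Nu-NB, 0.0461% in T16 and 0.0645% in P13. No class was free of these transcripts. Choroid plexus-like cells, at 0.0417% in Nu-NB, held 0.0836 to 0.161% in 3 PDOXs, and fibroblast-like cells, at 0.139% in Nu-NB, held 0.183 to 0.560%.

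A per-cell view at equal depth gave the same order of medians, though not the same order in each library. After thinning to 500 UMIs, 43.6% (P3) to 92.6% (P8) of endothelial-like cells of the untreated PDOXs had UMIs of at least 2 of the genes, against 11% (T233) to 88.3% (T101) of myeloid-like cells and 0% (T233) to 50% (T101, 7 of 14 cells) of astrocyte-like cells. In T101 the endothelial-like value, 87.3%, lay just below the myeloid-like one, with overlapping intervals. Cells with fewer UMIs were left out, from 2 (P13) to 187 (T16) endothelial-like, 7 (P13) to 424 (T192) myeloid-like and 29 (P13) to 221 (T16) astrocyte-like cells per PDOX. Without thinning the ranges were 56.7 to 89.9%, 28.5 to 84.3% and 5.50 to 39.1%. The astrocyte-like value of T233 is 0 of 32 cells, and its 95% interval reaches 10.9%. In Nu-NB the shares were 7 of 10 endothelial-like cells, 21.2% of myeloid-like and 2.14% of astrocyte-like cells. Droplet libraries hold free mRNA, and its part in these shares was not tested. Single genes were at 0 UMIs in one class and counted in another, such as Ifi204 and Mx1 in P3, with 0 UMIs in endothelial-like cells and 39 and 12 UMIs in myeloid-like cells.

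The classes differed in which genes made up the share. The test compared summed UMIs of 2 classes from the same animals (edgeR quasi-likelihood test blocked by sample, Benjamini-Hochberg over all genes tested), and a gene passed at a false discovery rate (FDR) of at most 0.01 and an absolute log2 fold change of at least 1. Between myeloid-like and endothelial-like cells of 7 PDOXs, 14 of 36 tested genes passed, against 31.2% of all 4382 genes. Of these, 11 were higher in endothelial-like cells (background 14.8%) and 3 in myeloid-like cells (background 16.4%). The median log2 fold change over the 36 was -0.27, and over all genes -0.05. The split moved with the libraries and the filter: it was 7 higher in endothelial-like and 7 in myeloid-like cells without P8, 7 and 6 without T233, and 8 and 7 with no filter on low counts, and the median was -0.04 without P8 and -0.01 without T233. Of the 9 genes not tested, Cxcl9 is unlisted in T233, and Mx1, Mx2, Oas2, Cmpk2, Gbp6, Irgm2, Ifi204 and Cxcl10 had counts too low. Of these, Mx1, which in resistant mouse strains blocks influenza virus, had 9.43 to 137 CPM in myeloid-like and 0 to 4.02 CPM in endothelial-like cells, and Oas2 had 0 to 31.6 and 0 to 18.3 CPM.

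The GTPases were the endothelial side of this contrast, with 7 of 8 tested members higher in endothelial-like cells and lower in the myeloid-like cells of 7 of 7 PDOXs, an ordering found in 14 of the 36 tested genes and in 29.5% of all genes. Gbp3, a guanylate-binding protein that gathers on microbe-containing vacuoles, lay at 11.3, 42.2 and 344 CPM (lowest, median and highest PDOX) in myeloid-like cells and at 172, 326 and 1103 CPM in endothelial-like cells. The ranges overlapped only through T101, the highest library in both classes. The log2 fold change (myeloid minus endothelial) was -2.80 ± 0.416 (SE), with an FDR of 0.000118.

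Gbp7, of the same family, lay at 11.3, 38.1 and 835 CPM in myeloid-like and at 154, 293 and 1310 CPM in endothelial-like cells, a log2 difference of -2.22 ± 0.518. Gbp5, which in macrophages promotes inflammasome assembly, had 0.943, 15.8 and 326 CPM against 39.6, 104 and 664 CPM (-2.42 ± 0.513). Ifi47, an immunity-related GTPase, had 0, 12.1 and 98.2 CPM against 35.2, 68.4 and 171 CPM (-2.23 ± 0.436). In each of these genes the highest myeloid-like value was that of T101, and it exceeded the endothelial-like value of several other PDOXs. Gbp2 (-1.97), Iigp1 (-1.95) and Igtp (-1.48) passed as well, and Irgm1, at -0.93, did not reach the fold threshold. Without T101 the same 7 GTPases passed, with log2 differences from -3.09 (Gbp3) to -1.82 (Igtp), and Ifi204, not tested with T101, passed on the myeloid side (5.64 ± 0.361).

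Ifitm3 and Ifitm2 encode small membrane proteins that block virus entry at the endosome. Ifitm3 was the most counted of the 45 genes, at 97.1, 419 and 765 CPM in myeloid-like and 1262, 1841 and 2876 CPM in endothelial-like cells, so that the ranges of the classes did not overlap (log2 fold change -2.19 ± 0.331, FDR 9.92e-05). Ifitm2 had 10.4, 29.6 and 63.1 CPM against 123, 265 and 667 CPM, again with no overlap (-3.03 ± 0.447, FDR 0.000110). Xaf1, an interferon-induced promoter of apoptosis, had 49.0, 131 and 231 CPM against 202, 354 and 495 CPM (-1.34 ± 0.282), and Ifit1, which binds foreign capped RNA, had 4.72, 29.3 and 66.6 CPM against 35.4, 83.2 and 207 CPM (-1.33 ± 0.361).

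On the myeloid side stood Lgals3bp, a secreted glycoprotein that binds galectins, with 177, 299 and 624 CPM in myeloid-like cells and 27.3, 52.8 and 105 CPM in endothelial-like cells. The ranges did not overlap, and its log2 fold change was 3.03 ± 0.172 with an FDR of 7.95e-10. Ifit2 (23.6, 124 and 330 CPM against 0, 44 and 195 CPM, log2 fold change 1.38 ± 0.336) and Zbp1, a sensor of Z-form nucleic acid that can start necroptosis (13.4, 66.7 and 228 CPM against 16.4, 31.2 and 195 CPM, 1.02 ± 0.254), passed with overlapping ranges.

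The regulators did not pass between these classes. Irf7, the master regulator of type I interferon genes, lay at 4.47, 77.1 and 305 CPM in myeloid-like and 41.6, 78.0 and 165 CPM in endothelial-like cells, a log2 fold change of -0.18 ± 0.373. Irf1 gave 0.13 ± 0.336, Stat2 gave 0.61 ± 0.259 and Irf9 gave -0.47 ± 0.187, and none of the 4 transcription factors passed. Isg15 (32.1, 148 and 403 CPM against 219, 269 and 390 CPM, -0.83 ± 0.330), Eif2ak2 (-0.14 ± 0.221), Trim30a (0.93 ± 0.182) and Ifi44 (0.92 ± 0.226) did not pass either. For Trim30a and Ifi44 the FDR was below 0.01 but the fold was under the threshold.

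**Figure D2:**
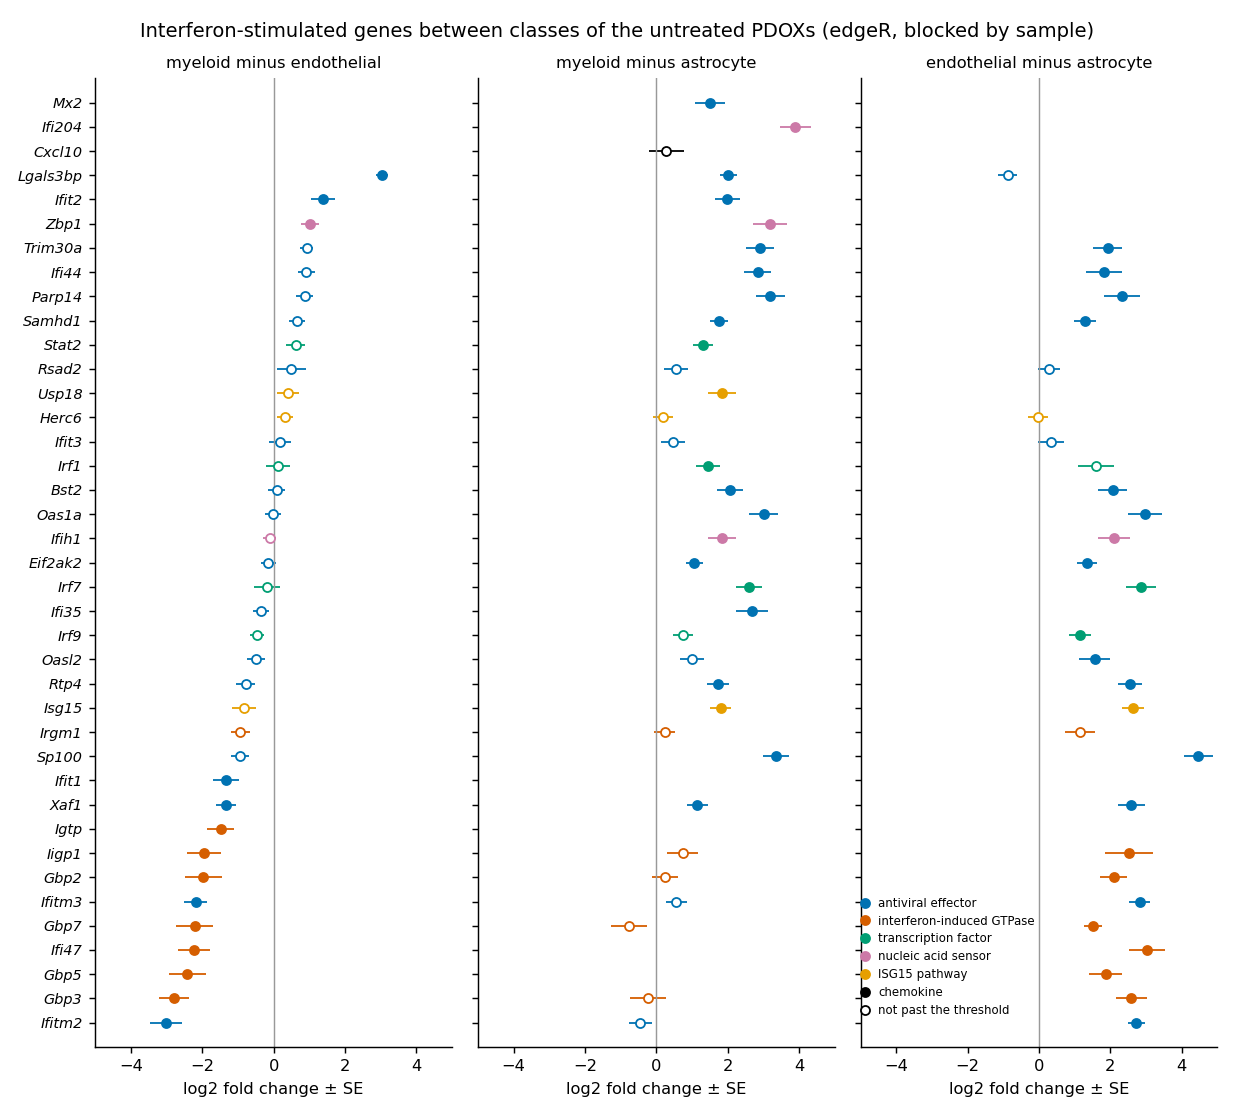
Log2 fold change (x axis, edgeR, ± SE) of each tested interferon-stimulated gene (y axis) between 2 classes of the untreated PDOXs, 7 in the left panel and 6 in the others. Colours mark roles and open circles genes not past the threshold; a gene without a circle was not tested in that panel. The GTPases sit left of 0 between myeloid-like and endothelial-like cells and right of 0 between endothelial-like and astrocyte-like cells.

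Each class also held UMIs of the markers of the other, and their source was not tested. Myeloid markers summed to 228 (T16) to 3245 CPM (T233) in endothelial-like cells of the untreated PDOXs, and endothelial markers to 182 to 578 CPM in myeloid-like cells. Without the sample block 5 of the 36 genes passed, with cells of at least 500 detected genes 8 of 31 did (11 of the 14 were still tested), and with DESeq2 size factors 14 did, 5 higher and 9 lower, of which 12 were among the first 14 (Gbp2 and Ifit1 were lost, Ifi44 and Trim30a came in). Among the GTPases, only Gbp3 passed without the block, and with no filter on low counts Gbp2, Gbp5, Gbp7 and Iigp1 did not pass. Calls were lost on leaving out single libraries for Gbp2 (P8, T233, P3, T16 or P13), Iigp1 (P8, T233, T16 or P13), Ifit1 (P8, T101, T192 or P13), Igtp (P8 or T233), Ifit2 (T16 or P13), Zbp1 (T192 or P3) and Gbp7 (T233).

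Against astrocyte-like cells, myeloid-like cells were higher for many genes, and none of these was a GTPase. Of 35 genes tested over 6 PDOXs, 22 passed (39.5% of all genes did), 22 of them higher in myeloid-like cells (background 22.1%) and 0 lower (background 17.4%). The median log2 fold change was 1.51 against 0.10 over all genes. DESeq2 also called 0 lower, and in edgeR 0 had an unadjusted p under 0.05 in that direction. In 19 of the 35 the myeloid-like value was higher in each PDOX (background 27.6%). By role, 14 of 19 antiviral effectors, 2 of 3 ISG15 pathway genes, 3 of 4 transcription factors and 3 of 3 sensors were higher. The leading genes were Ifi204 (3.89 ± 0.439), a sensor of DNA, the nuclear body protein Sp100 (3.35 ± 0.369), the ADP-ribosyltransferase Parp14 (3.20 ± 0.416), Zbp1 (3.18 ± 0.484), Oas1a (3.01 ± 0.411), which makes the oligoadenylate that activates RNase L, and Trim30a (2.91 ± 0.393). Ifi204 lay at 27.3, 124 and 558 CPM in myeloid-like cells of the 7 PDOXs and at 0, 0.809 and 43.6 CPM in astrocyte-like cells. Irf7, Irf1 and Stat2 passed with 2.60, 1.45 and 1.31. Of the 5 GTPases tested, 0 passed in edgeR or had an unadjusted p under 0.05, with log2 fold changes from -0.75 (Gbp7) to 0.74 (Iigp1), and each of the 22 calls of DESeq2 was a call of edgeR. With cells of at least 500 detected genes (5 PDOXs) 18 genes were higher and 1, Gbp7 (-1.59 ± 0.333), was lower. The count of 22 became 11 without the block. Without P13 it was 11, with 15 of the 22 genes still tested and the calls of Eif2ak2, Ifih1, Irf1 and Xaf1 lost among these, and without P8 it was 14, again with 15 still tested.

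Endothelial-like cells were higher than astrocyte-like cells in 23 of 29 tested genes (background 22.8%, and 40.4% in either direction) and lower in 0 (background 17.6%), with a median log2 fold change of 2.06 against 0.21 over all genes. DESeq2 called 0 lower too, and 1 gene, Lgals3bp, had an unadjusted p under 0.05 on the lower side in edgeR. Sp100 led with 4.46 ± 0.410, at 141, 221 and 606 CPM in endothelial-like cells and 0, 5.92 and 38.7 CPM in astrocyte-like cells, followed by Ifi47 (3.01), Oas1a (2.97), Irf7 (2.86), Ifitm3 (2.82) and Ifitm2 (2.73). Here 6 of 7 tested GTPases passed, and Irgm1, at 1.15, missed the FDR threshold. Calls were lost on leaving out single libraries for Gbp5 (T233, T16 or P13), Iigp1 (T192, T233, T16 or P13), Ifi44 and Oasl2 (P8, T101, T233, T16 or P13), Irf9 (T101, T192, T233, T16 or P13), Eif2ak2 and Samhd1 (P8 or T16), and Ifih1 and Trim30a (P13). Isg15 passed with 2.63 ± 0.317. Without T101 the count was 20 higher and 1 lower, the latter Lgals3bp (-1.08 ± 0.282), which had -0.87 ± 0.270 with T101 included. Lgals3bp passed on the lower side also without T16 (-1.24 ± 0.306) and without P13 (-1.14 ± 0.355), and Cxcl10 did with no filter on low counts (-1.56 ± 0.376). The count of 23 became 14 without the block and 15 with cells of at least 500 detected genes, where 19 of the 23 were still tested. It was 15 higher and 1 lower without P13, and 16 and 1 without T16.

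The receptors and signalling genes of the pathway were followed as a list of 30 genes outside the 45. Between myeloid-like and endothelial-like cells, 9 of 20 tested were higher in myeloid-like cells (16.4% of all genes were) and 1, the type I receptor subunit Ifnar1, was lower (14.8%). The 6 largest were Tlr7, a sensor of viral RNA (5.88), Ptpn6 (5.04), a phosphatase that dampens receptor signalling, the transcription factors Irf8 (4.58) and Irf5 (4.04), the feedback inhibitor Socs3 (2.86) and the interferon-gamma receptor subunit Ifngr2 (2.16). Against astrocyte-like cells 13 of 21 were higher in myeloid-like cells (22.1% of all genes) and 1 lower (17.4%). Interferon transcripts themselves were near the detection limit. Ifng had 5 UMIs in T101, 1 in P8 and 1 in T192 and was unlisted elsewhere. Ifnb1 had 2 UMIs in T192, 2 in P3TMZ and 1 in T16, the last outside the kept cells. Ifna2 and Ifna4 were listed in 0 of the 9 tables.

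T101 held the highest share of interferon-stimulated transcripts in each of the 5 classes it could be compared in, and the GTPases made up the largest part of the excess. In myeloid-like cells T101 reached 1.23%, against 0.133 to 0.519% in the other 6 PDOXs, 3.67 times their median. By role it stood 2.30 times above that median for the antiviral effectors, 2.67 times for the ISG15 pathway, 3.41 times for the sensors, 4.20 times for the transcription factors and 15.7 times for the GTPases, whose share was 0.394% against 0.00962 to 0.0436%. In astrocyte-like cells all genes stood at 7.87 times and the GTPases at 20.4 times the median of the others, in OPC-like cells at 5.44 and 13.5 times, in mural-like cells at 2.40 and 6.40 times, and in endothelial-like cells at 2.65 and 5.31 times. These are descriptions of 1 library against 6 (5 in the classes not found in every PDOX), with no test.

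**Figure D3:**
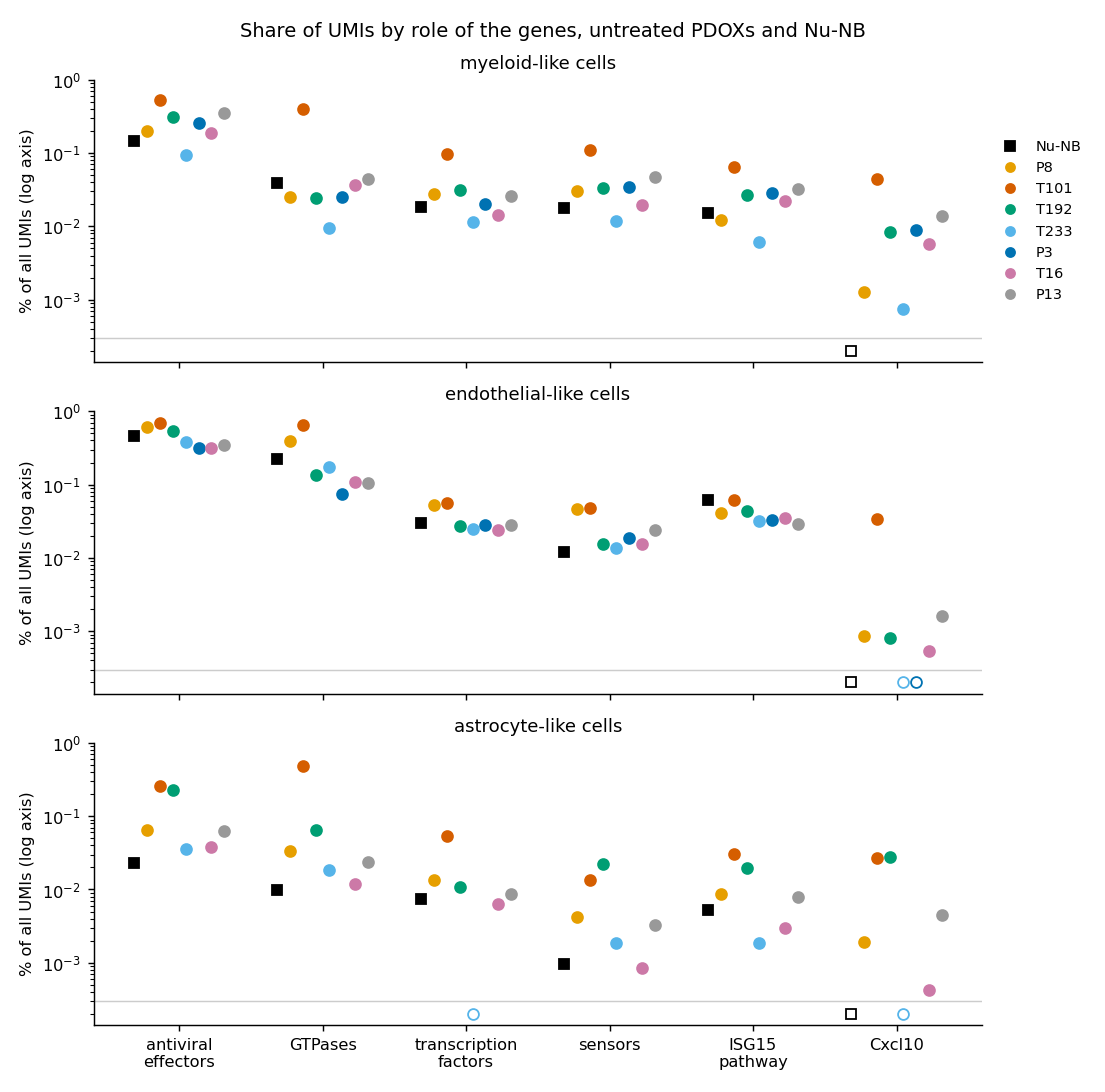
Share of UMIs (y axis, %, log axis) on the genes of each role (x axis) in myeloid-like, endothelial-like and astrocyte-like cells of Nu-NB (squares) and the untreated PDOXs (circles). Open symbols under the grey line had 0 UMIs. The GTPase share of T101, 0.394% in myeloid-like cells, stands apart from the other PDOXs at 0.00962 to 0.0436%.

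Gbp2 was at 1028 CPM in the myeloid-like cells of T101 and at 3.77 to 47.3 CPM in the other PDOXs. Iigp1 was at 775 against 3.77 to 58.2 CPM, and Gbp7 at 835 against 11.3 to 143 CPM. Each value of T101 lay above the whole range of the others. The chemokines did likewise. Cxcl10, which draws T and NK cells through CXCR3, was at 438 CPM in T101 and 7.54 to 138 CPM in the other PDOXs, and Cxcl9, a ligand of the same receptor, was at 631 CPM against 0 to 9.70 CPM in the 5 other PDOXs that list it. Irf1 (340 against 33.9 to 91.5 CPM) and Irf7 (305 against 4.47 to 80.0 CPM) stood apart in the same way, whereas Lgals3bp (428 CPM) lay below T192 (624 CPM) and Bst2, a tether of budding virions (66.6 CPM), lay within the other PDOXs (47.9 to 197 CPM).

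Of 44 genes tested in myeloid-like cells, 37 were highest in T101 among the 7 PDOXs, against 17.1% of all genes, and these included 10 of 10 GTPases. In endothelial-like cells T101 was highest in 25 of 41 (background 13.1%), with Gbp2 at 1176, Iigp1 at 1206 and Gbp7 at 1310 CPM. P8 was highest in 10 (background 30.4%), and its Gbp7 (1100 CPM) and Iigp1 (563 CPM) came next to T101. In astrocyte-like cells T101 was highest in 25 of 34 (background 24.6%) and T192 in 8 (background 20.8%).

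**Figure D4:**
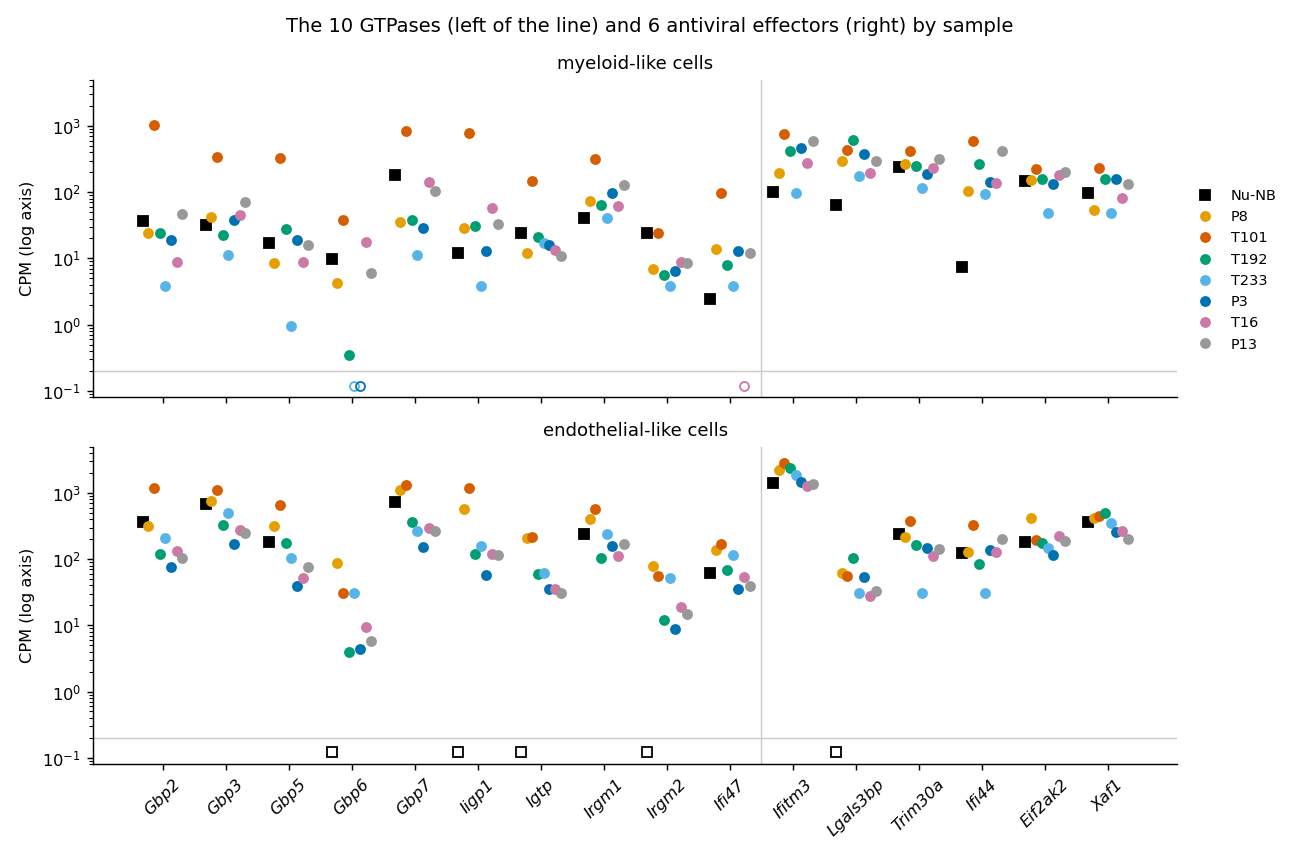
CPM (y axis, log axis) of the 10 GTPases and of 6 much counted antiviral effectors (x axis, split by the grey vertical line) in myeloid-like and endothelial-like cells of Nu-NB (squares) and each untreated PDOX (circles). Open symbols under the horizontal line had 0 UMIs. In myeloid-like cells T101 is the highest circle for each GTPase (Gbp2 1028 CPM), while for the effectors it lies nearer to the other PDOXs.

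The makeup of the myeloid-like cells also differed in T101, which had 153 monocyte-derived-like cells of 381. Microglia-like cells held 0.878% in T101 (40 cells) and 0.134 to 0.437% in the other PDOXs, with a GTPase share of 0.273%, 11.7 times the median of the others. The 188 myeloid-like cells of T101 in neither subgroup held 1.09%, against 0.132 to 0.538% in the other PDOXs. Most of them fell in a cluster with Gbp2b, Iigp1 and Gbp2 among its leading genes. This cluster took 39.6% of the myeloid-like cells of T101, 32.9% of P8 and 0 to 13.9% of the other PDOXs. The listed genes were left out of the clustering, but Gbp2b and Gbp4, another leading gene, are not on the list. Such related genes could sort cells into this cluster, so the subgroup shares are not independent of the clustering. The part of this sorting in the subgroup shares was not tested. P8 held 0.299% in its cells outside the named subgroups. Monocyte-derived-like cells held 1.57% in T101 (153 cells), 1.12% in P8 (19), 1.04% in P13 (66), 0.371% in T192 (34) and 0.937% in Nu-NB (24). Nu-NB, P8 and P13 thus came nearer to T101 here than in microglia-like cells, although on few cells. The neutrophil marker S100a8 was among the leading genes of this subgroup, and the part of neutrophils was not tested. In the monocyte-derived-like cells the antiviral effectors took 0.715% in T101 and 0.712% in P13, and the sensors 0.152% in T101 and 0.151% in P8. The GTPases took 0.441% in T101, 0.290% in P8, 0.0630% in P13 and 0.0485% in T192, and Cxcl10 0.0684% in T101 against 0 to 0.0305% in the others. The 7 T and NK cell markers summed to 1266 CPM in the myeloid-like cells of T101, against 10.4 to 382 CPM in the other PDOXs and 21.9 CPM in Nu-NB. All 7 were detected in T101, P8 and T192, while the tables of the other PDOXs list 1 (P3) to 6 (P13) of them, so the sums cover unequal numbers of markers. The chemokine Ccl5 is 1 of the 7 and the one listed in P3. Over all kept cells of T101 it had 295 UMIs, against 24 for Nkg7 and 8 for Cd3e. Of 6 dendritic cell markers, 3 to 6 are listed per PDOX, and they summed to 126 CPM in T101 and 1.89 to 37.6 CPM in the others. The part of these cells in the T101 values was not tested. In endothelial-like cells the T and NK cell markers were at 0 UMIs in T101 and at 0 to 74.9 CPM in the other PDOXs, and the GTPase share of T101 was 1.64 times that of P8, the next highest. The 715 unnamed cells of T101 held 0.139%, within the 0.117 to 0.278% of unnamed cells in the other PDOXs.

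At the low end was T233. It held the lowest share in myeloid-like, astrocyte-like and OPC-like cells, while in endothelial-like cells (0.623%) it was the median PDOX. Set beside T192, derived from the same patient, its myeloid-like cells were lower in 44 of 44 genes, where T192 exceeded T233 in 62.6% of all 8885 genes. In astrocyte-like cells T192 was higher in 34 of 34 (background 65.2%), and in endothelial-like cells in 27 of 41 (background 60.9%). Ifitm3 was at 419 CPM in the myeloid-like cells of T192 and 97.1 CPM in those of T233, Isg15 at 147 and 32.1 CPM, and Cxcl10 at 84.5 and 7.54 CPM. Mitochondrial transcripts took 7.98% of the UMIs of myeloid-like cells in T233 and 3.29% in T192, and 18.9% and 5.98% in astrocyte-like cells, and their part in these differences was not tested. With 1 library each, mouse and tumour cannot be told apart.

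Compared with the normal brain, the myeloid-like cells of the PDOXs held more interferon-stimulated transcripts in 6 of 7 cases. None of the 44 genes passed in edgeR. With Nu-NB as 1 library almost no gene outside the list did either, so the test cannot decide for single genes. Nu-NB stood at 0.235% (interval 0.220 to 0.250%), and T233, at 0.133%, was the PDOX below it. Of 44 genes tested, 0 passed in edgeR (6 had an unadjusted p under 0.05), where 0.0338% of 8885 genes passed, and DESeq2 called 2, Ifi44 and Lgals3bp. The log2 fold change was positive in 40 of 44, with a median of 1.29 against 0.10 over all genes, and it was 0.61 without T101. For the 10 GTPases the median was 1.68 with T101 and -0.11 without it, and their share lay above that of Nu-NB (0.0385%) in 2 of 7 PDOXs. Neutrophil markers summed to 1398 CPM in the myeloid-like cells of Nu-NB, 668 CPM in P8 and 0 to 256 CPM in the other PDOXs, and their part was not tested. Within microglia-like cells alone Nu-NB stood at 0.184% and 6 of 7 PDOXs above it, again all but T233 (0.134%). These cells came from different clusters: 1 cluster held 621 of the 635 microglia-like cells of Nu-NB, but 77 of 322 in P8, 19 of 463 in T192 and 11 of 171 in T233. The largest cluster was another one in T192 (230 cells), T233 (83) and P8 (198).

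Ifi44, a cytoplasmic antiviral protein, lay at 7.31 CPM in Nu-NB and at 94.3, 144 and 586 CPM in the PDOXs (log2 fold change 5.41 ± 1.60, FDR 0.128). Lgals3bp lay at 63.3 CPM in Nu-NB and at 177, 299 and 624 CPM in the PDOXs (2.79 ± 0.709, FDR 0.0652). Cxcl10 had 0 UMIs in Nu-NB and a mean of 118 CPM in the PDOXs, at least 16.2-fold above the 7.31 CPM that 3 UMIs would give, and at least 8.91-fold without T101. In these genes each PDOX lay above Nu-NB, as it did for 12 of 44 genes (background 16.9%), and for 0 of 44 did each PDOX lie below (background 32.2%). Irf7 (4.34 ± 2.93) and Zbp1 (3.79 ± 2.03) had large fold changes with large errors. On the lower side, Rsad2 was at 117 CPM in Nu-NB and below it in 5 of 7 PDOXs, and Samhd1 at 231 CPM and below it in 6 of 7. Gbp7 too, at 185 CPM in Nu-NB, was lower in 6 of 7 PDOXs, all but T101. With cells of at least 500 detected genes the log2 fold changes of Rsad2 and Samhd1 turned positive.

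Since only P8 was flow-sorted like Nu-NB, it is the comparison within 1 preparation. Its myeloid-like cells held 0.295% against 0.235%, with 30 of 44 genes higher in P8 (background 43.8%), its astrocyte-like cells 0.127% against 0.0462%, with 32 of 34 higher (background 58.4%), and its endothelial-like cells 1.14% against 0.785%, with 30 of 41 higher (background 47.0%). For the 6 PDOXs prepared by depletion, preparation and tumour cannot be told apart. T101, with the highest values, was among them.

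In endothelial-like cells the share in Nu-NB, 0.785% (interval 0.655 to 0.933%) on 34 cells and 129 UMIs, lay above 5 of the 7 PDOXs. Of the 2 endothelial-like clusters, the one led by Gkn3 and Bmx held 34 of the 34 cells of Nu-NB, whereas the one led by Scgb3a1 and Gimap4 held 151 of 210 in P3, 254 of 552 in T16 and 186 of 519 in P13, the PDOXs with the lowest shares. The part of this makeup in the shares was not tested. Of the 41 genes tested none passed in edgeR or DESeq2. No gene outside the list did either, so with 1 Nu-NB library the test cannot decide here. The median log2 fold change was 1.20, but the median of all genes was itself 0.71. At this depth 3 UMIs correspond to 183 CPM in Nu-NB, and of the genes at 0 there Iigp1 alone had a PDOX mean above it. It had 0 UMIs in Nu-NB and a mean of 334 CPM in the PDOXs (at least 1.83-fold), a mean carried by T101 (1206 CPM) and P8 (563 CPM), and without T101 at least 1.03-fold. Ifit1 (35.4, 83.2 and 207 CPM in the PDOXs), Irf7 (41.6, 78.0 and 165 CPM) and Igtp (30.5, 60.3 and 219 CPM) also had 0 UMIs in Nu-NB, and no fold can be given for them. Rtp4, a chaperone of membrane receptors (426 CPM in Nu-NB against 101.2, 145 and 199 CPM), and Sp100 (730 CPM against 141, 221 and 606 CPM) had lower CPM in 7 of 7 PDOXs, as did Cmpk2, a mitochondrial nucleotide kinase (60.8 CPM, a single UMI, against 10.4, 24.4 and 43.3 CPM). Ifit3 (183 CPM, against 16.4, 52.3 and 189 CPM) was lower in 6 of 7. Each PDOX lay below Nu-NB in 5 of 41 genes (background 38.0%), while 13 of 41 were above Nu-NB in each PDOX (background 31.8%). For a gene at 0 UMIs in Nu-NB a single UMI puts a PDOX above it, so the latter count depends on the low depth of Nu-NB.

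Astrocyte-like cells stood at 0.0462% in Nu-NB and above that in 6 of 6 PDOXs (0.0581 to 0.871%), the lowest of which, T233 and T16, had 31 and 142 UMIs on the genes and 95% intervals (0.0394 to 0.0824% and 0.0510 to 0.0713%) that overlapped that of Nu-NB (0.0410 to 0.0519%). Of the 34 genes tested none passed in edgeR or DESeq2. With 1 Nu-NB library almost no gene outside the list did either, so the test again cannot decide. The median log2 fold change was 2.69 against 0.02 over all genes. Each PDOX lay above Nu-NB in 7 of 34 genes (background 14.1%) and below it in 0 (background 18.9%). Isg15 had 0 UMIs in Nu-NB and 8.52 to 136 CPM in the PDOXs, at least 10.7-fold by the mean (unadjusted p 0.000581, FDR 0.355, edgeR). By the same measure Cxcl10 was at least 21.5-fold, Gbp5 at least 23.1-fold and Iigp1 at least 34.3-fold higher, means to which T101 (272, 544 and 918 CPM) and, for Cxcl10, T192 (281 CPM) gave the largest values. Without T101 these bounds were 14.5-fold for Cxcl10, 5.17-fold for Gbp5, 2.99-fold for Iigp1 and 7.15-fold for Isg15. Herc6 was at 51.3 CPM in Nu-NB and 0 to 102 CPM in the PDOXs. The astrocyte-like sums of T192 and T233 held 4462 and 4813 CPM of myeloid markers against 615 to 1429 CPM in the others, and their part in these values was not tested.

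Whether the difference from Nu-NB was unlike between classes was tested as an interaction. Between myeloid-like and endothelial-like cells 0 of 43 genes passed (3 with an unadjusted p under 0.05; DESeq2 called 0), and between myeloid-like and astrocyte-like cells 0 of 44 passed (10 with an unadjusted p under 0.05; DESeq2 called 0; 0.0189% of all genes). In the latter fit Isg15 had -6.66 ± 1.78 (myeloid minus astrocyte).

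Temozolomide (TMZ), a DNA-alkylating drug used against glioblastoma, was compared in 1 P3 xenograft against the P3 xenograft without it, so the differences describe 2 libraries. The share of interferon-stimulated UMIs was 0.385% against 0.378% in myeloid-like cells, a ratio of 1.02 with a 95% counting interval of 0.953 to 1.09. With cells of at least 500 detected genes this ratio fell below 1. In endothelial-like cells the share was 0.549% against 0.470%, a ratio of 1.17 (1.06 to 1.28). The makeup of the classes moved as well: in endothelial-like cells the endothelial markers summed to 19905 CPM in P3TMZ and 11902 CPM in P3 and the myeloid markers to 381 and 800.5 CPM, the cluster led by Scgb3a1 and Gimap4 held 52 of 127 endothelial-like cells in P3TMZ and 151 of 210 in P3, and 206 of 330 myeloid-like cells were microglia-like in P3TMZ against 65 of 275 in P3. A myeloid-like cluster with the endothelial markers Slco1a4 and Cldn5 among its leading genes held 33 of the 330 cells in P3TMZ and 120 of the 275 in P3. The part of these shifts in the ratios was not tested. Of 33 genes with at least 20 UMIs in 1 of the libraries, 2 were over 2-fold higher in myeloid-like cells of the treated xenograft (background 6.62%) and 1 over 2-fold lower (background 3.44%); in endothelial-like cells 1 of 16 was higher (background 3.95%) and 1 lower (background 11.4%).

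**Figure D5:**
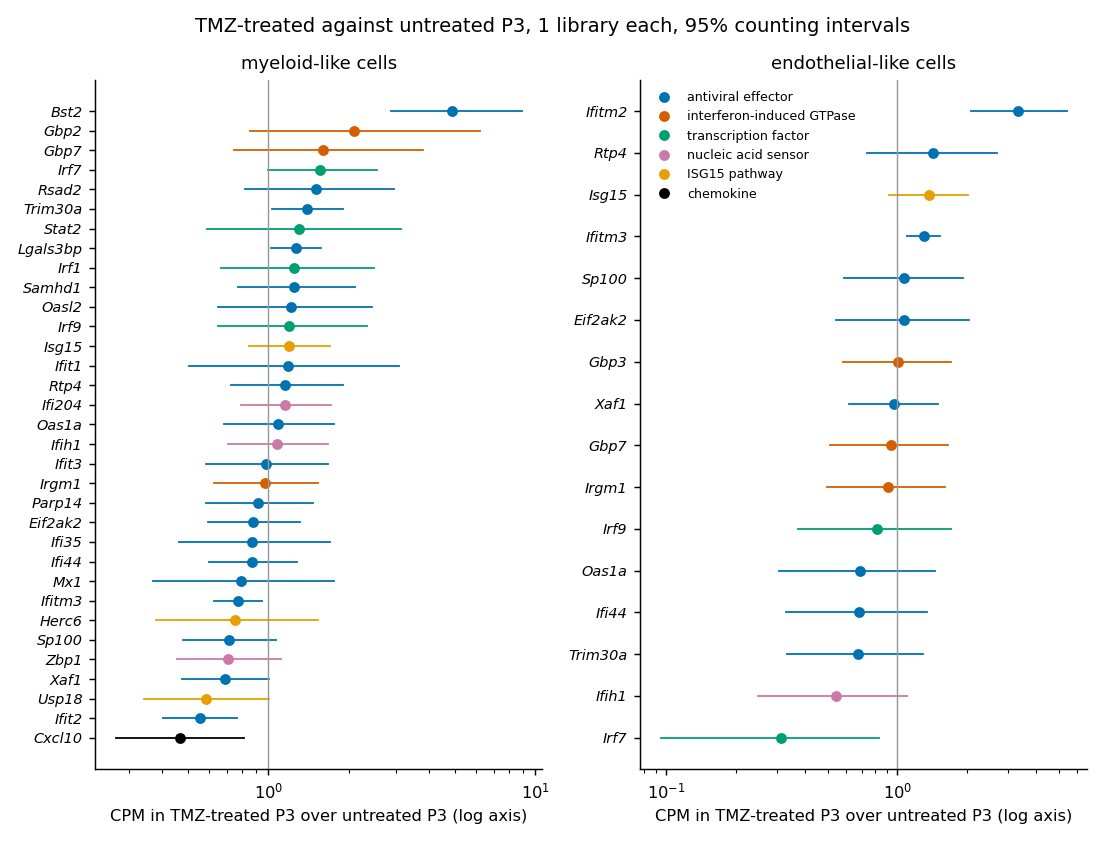
Ratio of CPM in P3TMZ over P3 (x axis, log axis) for each gene (y axis) with at least 20 UMIs in 1 of the libraries, in myeloid-like (33 genes) and endothelial-like cells (16 genes); bars are 95% counting intervals. Bst2 in myeloid-like and Ifitm2 in endothelial-like cells lie farthest to the right, at 4.89 and 3.33.

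Bst2 was at 234 CPM in the myeloid-like cells of P3TMZ and 47.9 CPM in those of P3, a ratio of 4.89 (2.88 to 8.94), and the treated value lay above the 47.9 to 197 CPM of the 7 untreated PDOXs. Gbp2 (ratio 2.10), Gbp7 (1.60) and Irf7 (1.57) came next, with intervals that reached below 1. For Trim30a (1.40, 1.04 to 1.91) and Lgals3bp (1.27, 1.03 to 1.58) the interval stayed above 1. Cxcl10 (0.466), Ifit2 (0.554), Usp18 (0.583) and Xaf1 (0.689) were at the low end, and the intervals of Cxcl10 (0.268 to 0.813) and Ifit2 (0.403 to 0.763) stayed below 1, as did that of Ifitm3 (0.769, 0.626 to 0.949). In endothelial-like cells Ifitm2 was at 410 CPM against 123 CPM (3.33), within the 123 to 667 CPM of the untreated PDOXs. It was followed by Rtp4 (1.42), Isg15 (1.37) and Ifitm3 (1.30, 1.11 to 1.54), and at the low end stood Irf7 (0.314), Ifih1 (0.545), Trim30a (0.673) and Ifi44 (0.686). Of the latter the interval of Irf7 (0.0943 to 0.832, on 5 and 26 UMIs) stayed below 1. Ifitm3 thus had an interval below 1 in myeloid-like and above 1 in endothelial-like cells, while the makeup of both classes moved as given above. The intervals cover counting error only, and a difference between mice cannot be told apart from treatment.

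Some of these genes cannot be counted cleanly. Igtp (chromosome 11, 58199556 to 58207591) and Irgm2 (chromosome 11, 58199618 to 58222782) overlap on the plus strand in the GENCODE annotation of GRCm38, whereas the RefSeq promoter of Irgm2 printed above lies beyond the end of Igtp, and the 3′ ends, which Drop-seq counts, lie apart in GENCODE. The Gbp, Ifitm and Oas families hold near-identical copies, so reads may be shared among neighbours and single members of a family are less certain than the role as a whole.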

How the data were processed

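Mouse single cells from 9 nude mouse brains, 1 library each, were profiled by Drop-seq. The authors demultiplexed the reads with bcl2fastq 2.0 and mapped them with STAR to GRCm38 (mm10), and deposited raw UMI counts per gene and cell barcode, 1 table per library, without normalization. The STAR version was not given in the sources used here. The tables of the 7 bead-prepared libraries list only genes with at least 1 UMI, so an unlisted symbol was treated as missing.

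Barcodes under 200 genes or over 30% mitochondrial UMIs were dropped, the 5% with the highest doublet scores per library were left out, and the rest were clustered (scanpy 1.11.5, leidenalg 0.10.2, resolution 1, 2000 variable genes, 30 components, 20 neighbours) without the 45 genes. Clusters were named from marker lists with at least 3 markers detected; clusters with over 20% of UMIs on pseudogenes stayed unnamed. Rebuilt classes may differ from those of the study. UMIs were summed per library and class of at least 10 cells and tested with edgeR 4.0.16 (R 4.3.3; TMM, filterByExpr, robust quasi-likelihood F-test), adjusted by Benjamini-Hochberg over all genes, with the sample as a block between classes and no block against Nu-NB. The classes of 1 animal form the pairs. Deviations of its classes from the class means correlated by 0.228 to 0.436 (myeloid-like and endothelial-like), 0.186 to 0.413 (myeloid-like and astrocyte-like) and 0.0947 to 0.408 (endothelial-like and astrocyte-like). Intervals are exact, at 95%, and cover counting error only, as do lower bounds of folds, taken against 3 UMIs in Nu-NB. The edgeR steps were tested on simulated data. Each mouse carries a different tumour, so the error across PDOXs mixes mouse and tumour.

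The alternatives were DESeq2 1.42.0, DESeq2 size factors, no filter on low counts, no block, no doublet removal, cells with at least 500 genes, resolution 2, thinning to 1000 UMIs and leaving out each PDOX. The 45 genes, the marker lists and the pathway list were chosen with earlier results of these data known. Named genes were the 8 with the most UMIs, up to 6 per direction with the largest fold change past the threshold between classes, up to 4 per direction against Nu-NB with at least 50 CPM, up to 4 per direction for temozolomide with at least 20 UMIs, and Irf1, Irf7, Irf9 and Stat2. Genes named outside this rule, among them the remaining GTPases, were chosen after their values were seen. Tumours were not grouped by growth pattern, which the labels do not give.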

Additional observations from a re-analysis of the deposited data

Results flagged for a closer look

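Among 123 values (the share of UMIs by role and the CPM of named genes, in 3 classes of the untreated PDOXs), 41 had a highest or lowest library set apart, by a gap to its nearest neighbour that was a larger fraction of the range than Dixon's 95% critical value for 7 or 6 libraries. Chance gives about 1 in 20, but over all genes with at least 20 UMIs in the class a library was set apart in this way in 11.1% (myeloid-like), 13.3% (endothelial-like) and 10.6% (astrocyte-like), with T101 as the highest in 315 of 10487, 104 of 9109 and 335 of 8379 genes. Some of the genes were named for large folds against Nu-NB that T101 carries, so the count is a description. In 37 of the 41 the library was T101, as the highest.

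In myeloid-like cells T101 was set apart, with the gap as a fraction of the range in brackets, for the share of all 44 genes (0.649), the GTPases (0.911), the transcription factors (0.764), the chemokine Cxcl10 (0.697) and the sensors (0.630). The single GTPases were Gbp2 (0.958), Iigp1 (0.929), Igtp (0.924), Gbp5 (0.918), Ifi47 (0.857), Gbp7 (0.840) and Gbp3 (0.819). The others were Irf1 (0.812), Irf7 (0.749), Samhd1 (0.742), Ifi204 (0.736), Parp14 (0.657), Herc6 (0.651) and Stat2 (0.639).

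In endothelial-like cells T101 was set apart for Cxcl10, and with it the chemokine share (0.952), Zbp1 (0.830), Gbp2 (0.785), Ifit3 (0.693) and Parp14 (0.617), and P8 for Eif2ak2 (0.638). In astrocyte-like cells T101, with 46 cells, was set apart for the GTPase share (0.891), the transcription factor share (0.753), Iigp1 (0.947), Irf1 (0.937), Igtp (0.933), Gbp2 (0.906), Gbp5 (0.831), Gbp7 (0.827), Gbp3 (0.818), Ifit3 (0.736) and Usp18 (0.644), and T192 for Sp100 (0.791), Trim30a (0.695) and Ifit2 (0.649). These values share libraries and are not independent of each other.

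The CPM of Isg15 was lower than in Nu-NB in the endothelial-like cells of 7 of 7 PDOXs (background 38.0%) and higher in the astrocyte-like cells of 6 of 6 (background 14.1%). The endothelial-like value of Nu-NB is uncertain, since all 3 ISG15 pathway genes together had 10 UMIs in its 34 cells. The edgeR log2 fold change in endothelial-like cells, with TMM scaling, was 0.21 ± 0.551, positive where the CPM was lower, and its sign turned with DESeq2 size factors. In astrocyte-like cells it was 6.85, from 0 UMIs in Nu-NB. The difference between these classes was not tested.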

How the results depend on the processing

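Between myeloid-like and endothelial-like cells, 14 genes passed. The count was 5 without the sample block and 8 with cells of at least 500 genes. DESeq2 size factors gave 14, of which 12 were among the first 14, and moved the split from 3 higher and 11 lower to 5 and 9, no filter on low counts to 7 and 8, leaving out P8 to 7 and 7, and leaving out T233 to 6 and 7. Between myeloid-like and astrocyte-like cells 22 passed, 11 without the block, and 11 to 25 with each PDOX left out. Between endothelial-like and astrocyte-like cells 23 passed, 14 without the block and 15 with cells of at least 500 genes. Against Nu-NB, DESeq2 called Ifi44 and Lgals3bp in myeloid-like cells where edgeR called neither, and most genes that DESeq2 called there were outside the list. In astrocyte-like cells 1 gene passed without the filter on low counts (Ifitm3), and 0 to 1 with each PDOX left out (Isg15 without P8, Ifitm3 without T192). For the difference between myeloid-like and astrocyte-like cells, 1 gene (Gbp7) passed with cells of at least 500 genes. With such cells the temozolomide ratio of the share was 0.917 in myeloid-like and 1.29 in endothelial-like cells, the former on the other side of 1. Thinned to 1000 UMIs, the median share of cells with at least 2 of the genes was 71.4% in myeloid-like and 92.6% in endothelial-like cells. The cause was not tested in any of these. Over all alternatives, 151 of 190 calls between myeloid-like and endothelial-like cells stayed past the threshold where tested, 245 of 264 between myeloid-like and astrocyte-like cells and 245 of 291 between endothelial-like and astrocyte-like cells; without the block these were 5 of 14, 11 of 22 and 14 of 23. Up to 3, 4 and 1 of the tested genes changed sign under an alternative. For the genes with the largest folds between classes, chosen for that, 254 of 271 alternative values stayed past the threshold, 17 did not, and 0 changed sign. For those named against Nu-NB, 2 of 229 came to pass (Ifi44 by DESeq2 in myeloid-like cells, Isg15 without P8 in astrocyte-like cells), and 2 changed sign (Rsad2 and Samhd1 in myeloid-like cells, with cells of at least 500 genes). The fits of endothelial-like cells against Nu-NB with at least 500 genes were not run, since too few Nu-NB cells remained. Precision against Nu-NB is limited by its single library and, in endothelial-like cells, by 34 cells.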
